A study of Mus musculus with 71 samples.

Results

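Potassium channel transcripts were followed in whole mouse brain across 24 groups of arrays, using every probe set whose platform annotation gives 1 gene symbol that begins with Kcn. The rule used names alone and found 167 probe sets of 84 genes, among 45037 probe sets and 18193 gene symbols on the array. A probe set is a group of short oligonucleotides read as 1 value. Values were log2 signals, so a difference of 1 is a doubling, and every difference below is on this log2 scale unless a fold is named. The mean over the 71 arrays was 6 or more for 90 of the 167 probe sets, and 50 of the 84 genes had their brightest probe set at that level. In the account of sleep deprivation by family these 50 genes come before the dimmer ones, since the 77 probe sets under 6 lie nearer to the level of transcripts that brain should lack (the liver transcripts Alb and Apoa2 averaged 3.97 and 5.26). Just inside the limit were Kcnd1 (6.07), Kcns1 (6.05) and Kcnk6 (6.02), and just outside was a probe set of Kcnn1 (5.96).

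The mice were males aged 12 to 13 weeks from 3 inbred strains. These were AKR/J, then C57BL/6J, and DBA/2J. Mice were either kept awake for 6 h up to sacrifice or left undisturbed in the home cage. Sacrifice was at zeitgeber time (ZT) 0, 6, 12 or 18, where ZT0 is light onset and ZT12 the start of darkness, so that mice killed at ZT6 had lost the first part of the light period and mice killed at ZT18 the first part of the dark period. Each array carried RNA pooled from the whole brains of 3 mice. There were 3 arrays a group except sleep-deprived AKR/J at ZT18, which had 2, giving 36 control and 35 sleep-deprived arrays. By their labels the groups differ in strain, condition and time alone, and no mouse carried a transgene or drug. Each p-value rests on how pools of mice, not single mice, varied. Array medians ran from 5.65 to 5.71 after the authors' normalization. On 6 arrays, 4 of C57BL/6J and 2 of AKR/J (3 control and 3 sleep-deprived), the Dap and Thr spike-in controls added at labelling stood apart. The mean deviation of their 6 probe sets from the median over all arrays was -0.63 or lower there, and no lower than -0.22 on any other array. The remaining control probe sets were not used for this split. All 6 arrays were of mice killed at ZT0 or ZT6, and none was of DBA/2J. Comparisons of strains or of times are therefore partly confounded with them. Some results that rest on them are given with and without them, and further counts without them are given at the end. A probe set was called changed where limma's adjusted p, over all 45037 probe sets, was under 0.05.

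Potassium channels let potassium leave or enter a cell and so set its resting potential, the length of its action potentials and the pause between them. Their pores come from several families: voltage-gated subunits that open on depolarisation, silent subunits that assemble only with other voltage-gated subunits and modify them, calcium- or sodium-activated channels, inward rectifiers, and two-pore-domain channels that carry leak currents. Accessory subunits bind these pores and change their gating or their delivery to the membrane. In brain, potassium currents shape the slow oscillation of non-rapid eye movement sleep, and loss of Shaker-type channels shortens sleep in flies and mice. Of the 84 genes here, 22 encode voltage-gated pores, 9 silent subunits, 12 accessory subunits of voltage-gated channels, 8 calcium- or sodium-activated pores, 3 accessory subunits of the large-conductance calcium-activated (BK) channel, 15 inward rectifiers and 12 two-pore-domain channels, with 3 others that include the non-coding RNAs Kcnq1ot1 and Kcnmb4os2.

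The 250 bases before the annotated start of 3 genes are shown because the results turn on them: Kcnf1 had the largest rise with sleep deprivation of any Kcn probe set, and Kcnj9 and Kcnj10, next to each other on chromosome 1, both had their lowest level in C57BL/6J on their brightest probe sets. They are RefSeq sequences of build GRCm38.p6, each read 5′ to 3′ on the gene's own strand: chr12:17176889-17177138, minus strand, for Kcnf1, chr1:172329323-172329572, minus strand, for Kcnj9, and chr1:172340960-172341209, plus strand, for Kcnj10. Capitals mark matches to the GC box GGGCGG, here read on the opposite strand as CCGCCC, which lie in the Kcnj10 window only, at -130 and -36 from the start. All 3 windows come from the same reference build, so whether the strains differ in these letters was not analysed here.
Kcnf1: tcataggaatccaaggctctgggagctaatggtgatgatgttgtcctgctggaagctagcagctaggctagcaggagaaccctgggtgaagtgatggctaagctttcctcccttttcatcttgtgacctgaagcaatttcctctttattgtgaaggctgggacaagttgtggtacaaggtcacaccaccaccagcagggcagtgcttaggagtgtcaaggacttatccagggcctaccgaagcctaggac
Kcnj9: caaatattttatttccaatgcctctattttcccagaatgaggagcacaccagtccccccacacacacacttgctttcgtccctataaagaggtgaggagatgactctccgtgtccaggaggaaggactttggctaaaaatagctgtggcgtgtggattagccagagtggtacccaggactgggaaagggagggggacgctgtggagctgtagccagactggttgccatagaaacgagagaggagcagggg
Kcnj10: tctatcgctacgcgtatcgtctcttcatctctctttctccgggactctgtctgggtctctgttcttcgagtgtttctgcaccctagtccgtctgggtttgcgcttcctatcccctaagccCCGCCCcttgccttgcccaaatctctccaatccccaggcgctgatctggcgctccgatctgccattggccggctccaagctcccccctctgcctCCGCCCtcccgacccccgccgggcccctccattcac

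The table of such windows held 89 for 64 of the 84 genes, against 32851 for all genes, and 7 motifs were searched on both strands. The GC box was in 44.9% of Kcn windows and 32.7% of all windows. The cAMP response element TGACGTCA was in 0 of 89 Kcn windows and 1.55% of all, and its core TGACG, which lies inside it, in 15.7% and 17.8%. The AP-1 site TGACTCA was in 2.25% and 4.46%, the E-box CACGTG in 5.62% and 6.02%, the EGR site GCGGGGGCG in 2.25% and 2.57%, and the heat shock motif GAANNTTC in 5.62% and 6.69%. These are counts of letters in a window, and none of the 7 motifs was found in the Kcnf1 or Kcnj9 window shown.

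The first question is what 6 h without sleep did to these transcripts, averaged over the 3 strains and 4 times. Sleep deprivation changed a small number of channels by small amounts: 30 of the 167 probe sets (18.0%), of 22 genes, were called, against 17.3% of all probe sets on the array, so that potassium channels were called about as often as transcripts in general. Of these, 17 were higher (8.31% of all probe sets were called higher) and 13 lower (9%). Among the 90 brighter probe sets 25 were called (27.8%, against 29.6% of all probe sets at that level), and among the 77 dimmer ones 5 were (6.49%, against 6.87%). The median effect over the 167 was -0.0094 and over all probe sets -0.0024. The silent subunit Kcnf1, the two-pore-domain channel Kcnk1, the calcium-activated channel Kcnn2 and the accessory subunit Kcnip2 rose, and the voltage-gated channel Kcnc1, a transcript of the silent subunit Kcns2, the accessory subunit Kcnip4 and the channel Kcnq5 fell. In whole brain, fewer cells of a type and less RNA per cell cannot be told apart.

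**Figure D1:**
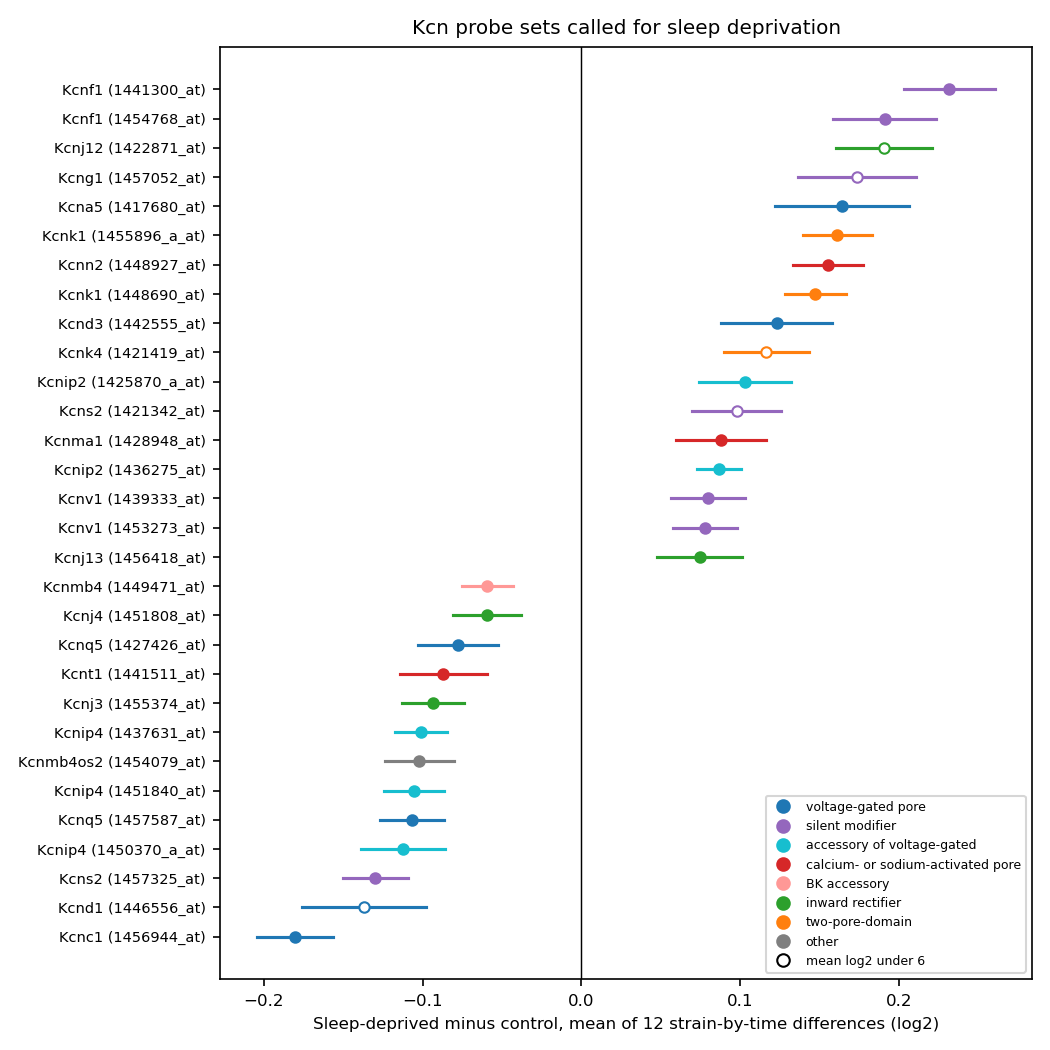
Effect of sleep deprivation (sleep-deprived minus control, log2, averaged over the 12 strain-time pairs) for the 30 called Kcn probe sets, with bars of 1 SE, coloured by channel family, open circles marking a mean log2 under 6. Effects run from -0.18 for Kcnc1 to 0.23 for Kcnf1, with 17 above 0 and 13 below.

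The counts by family below stand against 17.3% of all probe sets called, 8.31% higher and 9% lower, and no family was tested against the rest. Silent subunits held 7 of the 30 called probe sets, among 15 measured (6 higher, 1 lower). Kcnf1 (Kv5.1), which alone forms no current and alters the voltage-gated channels it joins, read 6.29 to 6.94 in the 36 control arrays (median 6.63) and 6.61 to 7.23 in the 35 sleep-deprived arrays (median 6.89) on its probe set 1441300_at. The sleep-deprived arrays stood higher, but both sets overlapped. The difference was 0.23 ± 0.03 (SE, 1.17-fold, limma adjusted p = 5.93e-09), higher in 11 of the 12 strain-time pairs. Its other probe set, 1454768_at, rose by 0.19 ± 0.03 (adjusted p = 6.87e-06). At ZT12 the 1441300_at values did not overlap within any strain: AKR/J controls read 6.45, 6.62 and 6.66 and sleep-deprived arrays 6.80, 6.95 and 6.96. C57BL/6J controls read 6.54, 6.72 and 6.87 against 6.92, 6.98 and 7.13, and DBA/2J controls 6.48, 6.53 and 6.58 against 6.83, 6.87 and 6.89.

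The other silent subunits moved less or unevenly. Kcnv1 (Kv8.1), which also needs a partner to reach the membrane, rose by 0.08 ± 0.02 on both 1453273_at (adjusted p = 0.00307) and 1439333_at (0.0101), and its remaining probe set gave 0.05 (0.226). Kcns2 (Kv9.2) was the single Kcn gene with called probe sets of opposite sign: 1457325_at fell by 0.13 ± 0.02 (1.67e-06), lower in all 12 pairs, from 7.76 to 8.26 in controls (median 8.03) to 7.62 to 8.11 (median 7.92), and the dimmer 1421342_at rose by 0.10 ± 0.03 (0.00897). Which Kcns2 transcript each of them reads was not analysed here. The dim Kcng1 probe set 1457052_at rose by 0.17 ± 0.04 (0.000335), while its other probe set gave -0.02.

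Among voltage-gated pores 6 of 50 probe sets were called (2 higher, 4 lower). Kcnc1 (Kv3.1), which repolarises fast-spiking neurons quickly enough for high firing rates, had the largest fall of the family. Its probe set 1456944_at read 8.50 to 9.07 in controls (median 8.79) and 8.32 to 8.88 after sleep deprivation (median 8.62), overlapping over all arrays but lower in each of the 12 pairs, a fall of 0.18 ± 0.02 (limma adjusted p = 2.89e-08). At ZT12 the AKR/J controls read 8.88, 8.88 and 8.90 and the sleep-deprived arrays 8.53, 8.67 and 8.73, with no overlap. The same held at ZT12 for C57BL/6J (8.71, 8.82 and 8.94 against 8.38, 8.43 and 8.62) and DBA/2J (8.94, 9.00 and 9.05 against 8.66, 8.67 and 8.72). The other 3 Kcnc1 probe sets gave -0.04, -0.01 and -0.04 and were not called, so the fall was seen on 1 of 4.

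Kcnq5 (Kv7.5), a subunit of the M-current that damps repetitive firing, fell by 0.11 ± 0.02 on 1457587_at (adjusted p = 4.77e-05), from 8.21 to 8.58 in controls (median 8.40) to 8.07 to 8.45 (median 8.30). It fell by 0.08 ± 0.03 on 1427426_at (0.0238). Kcna5 (Kv1.5), a delayed rectifier, rose by 0.16 ± 0.04 (0.00288), from 5.49 to 6.55 (median 6.07) to 5.62 to 6.77 (median 6.23), higher in 11 of 12 pairs. A pair of A-type channel genes, whose fast-inactivating current delays firing, were each called on a minor probe set: Kcnd3 rose by 0.12 ± 0.04 on 1442555_at (0.00797), with 0.03 to 0.06 and no call on its other 3, and Kcnd1 fell by 0.14 ± 0.04 on the dim 1446556_at (0.00816). The Shaker-type channels known from sleep mutants were not called: the 4 Kcna1 probe sets gave -0.02, -0.02, 0.02 and 0.06, those of Kcna2 -0.03 to -0.01, and Kcna3 -0.0016. Neither were Kcnc2 (-0.04), Kcnd2 (-0.03 to 0.02), Kcnq3 (-0.04 and -0.07) or Kcnh1 (-0.07 with adjusted p = 0.063, and -0.04), the last an ether-a-go-go channel.

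Accessory subunits were called on 5 of 24 probe sets (2 higher, 3 lower), all of them in 2 calcium-binding partners of A-type channels that moved in opposite directions. Kcnip2 (KChIP2) read 8.95 to 9.32 in controls (median 9.12) and 9.02 to 9.31 after sleep deprivation (median 9.22) on 1436275_at, which rose by 0.09 ± 0.01 (adjusted p = 3.09e-06). It was higher in 11 of 12 pairs, and 1425870_a_at rose by 0.10 ± 0.03 (0.00702). Kcnip4 (KChIP4) read 9.40 to 9.88 in controls (median 9.70) and 9.41 to 9.72 (median 9.58) on 1437631_at, which fell by 0.10 ± 0.02 (3.78e-06). Its probe sets 1451840_at and 1450370_a_at each fell by 0.11 (1.91e-05 and 0.0011), and the 3 read the same gene and are not independent. Kcnip3, Kcnab1 and Kcnab2 were not called (-0.03 to 0.05).

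Two-pore-domain channels were called on 3 of 18 probe sets, all higher. Kcnk1 (TWIK-1), a weakly rectifying leak channel of neurons and astrocytes, read 9.97 to 10.70 in controls (median 10.46) and 10.13 to 10.84 after sleep deprivation (median 10.65) on 1448690_at. The strains lay at different levels, and within each the conditions overlapped less: in AKR/J controls spanned 9.97 to 10.27 and sleep-deprived arrays 10.13 to 10.42, in C57BL/6J 10.41 to 10.70 and 10.59 to 10.84, and in DBA/2J 10.39 to 10.65 and 10.52 to 10.75. The rise was 0.15 ± 0.02 (1.11-fold, limma adjusted p = 1.41e-08) and on 1455896_a_at 0.16 ± 0.02 (3.50e-08). Kcnk2 (TREK-1, -0.05, adjusted p = 0.222) and Kcnk3 (TASK-1, 0.08, 0.166) were not called. Kcnk4 (TRAAK), a mechanically gated leak channel with a mean under 6, rose by 0.12 ± 0.03 (0.000751).

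Of the calcium- or sodium-activated pores 3 of 16 probe sets were called. Kcnn2 (SK2), the small-conductance channel behind the afterhyperpolarisation that follows a spike, read 7.69 to 8.32 in controls (median 8.0) and 7.91 to 8.46 after sleep deprivation (median 8.16). The arrays overlapped, and the rise of 0.16 ± 0.02 (adjusted p = 1.51e-07) was seen in 10 of 12 pairs. Kcnn1 and Kcnn3 were not called. Kcnma1, the BK pore, rose by 0.09 ± 0.03 on 1428948_at (0.0217), higher in all 12 pairs, with -0.05 to 0.06 and no call on its other 4 probe sets. The largest Kcnma1 difference, 0.46 in C57BL/6J at ZT6, compared 6.44, 6.58 and 6.82 with 7.0, 7.02 and 7.19, and 2 of those 3 sleep-deprived arrays were among the 6 with low spike-in controls. The BK accessory subunit of neurons, Kcnmb4, fell by 0.06 ± 0.02 (0.00537), and Kcnmb4os2, a non-coding RNA named for the strand opposite Kcnmb4, fell by 0.10 ± 0.02 (0.000277). Kcnt1, a sodium-activated channel, fell by 0.09 ± 0.03 on 1441511_at (0.0189), with no call on its other probe sets (-0.03 and -0.07).

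Inward rectifiers were called on 4 of 31 probe sets. Kcnj4 (Kir2.3), a strong rectifier that holds the resting potential, fell by 0.06 ± 0.02 (0.0479). Kcnj3, a pore subunit of the G protein-gated channels that inhibitory transmitters open, fell by 0.09 ± 0.02 on 1455374_at (0.000248), lower in all 12 pairs, with 0.04, -0.08 and -0.05 and no call on its other 3. The astrocytic potassium uptake channel Kcnj10 gave 0.02 (95% interval -0.03 to 0.07). Kcnj13 (Kir7.1), found in brain chiefly in the choroid plexus, rose by 0.07 ± 0.03 (0.0433) in 7 of 12 pairs. The choroid plexus markers measured beside it, 7 genes headed by Ttr, had 0 calls for sleep deprivation, and their mean level was 6.88 to 7.24 in controls (median 7.02) and 6.85 to 7.21 after sleep deprivation (median 7.02). Kcnj12 (Kir2.2), of the same subfamily as Kcnj4, rose by 0.19 ± 0.03 (adjusted p = 1.95e-06) in all 12 pairs, from 5.39 to 5.98 (median 5.60) to 5.41 to 6.04 (median 5.81), at a mean under 6. Kcnj8, a pore of ATP-sensitive channels also under 6, gave -0.02 and was not called. The Kcnj13 and Kcnj4 calls were lost with 35 and 45 of the 71 arrays left out singly, and the Kcnj13 call also without the 6 arrays with low spike-in controls.

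Each of the 30 called probe sets had the same sign in all 3 strains, which is a description, since the same arrays made the calls. Tested within a strain, 3 of the 30 were called in all 3, 8 in 2 strains, 11 in 1 and 8 in none. In AKR/J 11 Kcn probe sets were called (against 5.85% of all probe sets), 8 higher (3.4%) and 3 lower (2.45%), led by Kcnf1 (0.32 ± 0.05), Kcnk1 (0.24) and Kcnj12 (0.18), with Kcnv1 at 0.15, Kcnk4 at 0.17 and Kcnip2 at 0.18. The 3 falls in AKR/J were Kcnmb4os2 (-0.15), Kcnip4 (-0.13) and Kcnj3 (-0.12). In C57BL/6J 13 were called (against 6.45%), 8 higher (3.27%) and 5 lower (3.18%): Kcng1 (0.28), Kcnf1 (0.27), Kcnn2 (0.20), Kcnj12 (0.17), Kcnma1 (0.16), Kcnk1 (0.13) and Kcnip2 (0.08) rose, and Kcnc1 (-0.21), the leak channel Kcnk10 (-0.19), Kcns2 (-0.16), Kcnip4 (-0.15) and Kcnj4 (-0.13) fell. Without the 6 arrays with low spike-in controls the C57BL/6J count was 8 (against 4.19% of all). Kcnip2, Kcnma1, Kcng1, Kcnj12, Kcnj4, Kcnk10 and the Kcnip4 probe set were no longer called, so at most 6 of the 13 are among those 8. In DBA/2J 13 were called (against 6.9%), 8 higher (3.27%) and 5 lower (3.63%), with Kcnf1 (0.23), Kcnj12 (0.23), Kcnj13 (0.18), Kcnk1 (0.16), Kcnn2 (0.16), Kcnk4 (0.16) and Kcnip2 (0.11) higher and Kcnc1 (-0.20), Kcnq5 (-0.18), Kcns2 (-0.14), Kcnip4 (-0.10) and Kcnj3 (-0.10) lower. The test of whether the effect itself differed between strains called 0 Kcn probe sets by limma (against 0.0222% of all), with 12 at an unadjusted p under 0.05 and 0 with array weights. A gene called in 1 strain and not in another was therefore not shown to differ between them.

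**Figure D2:**
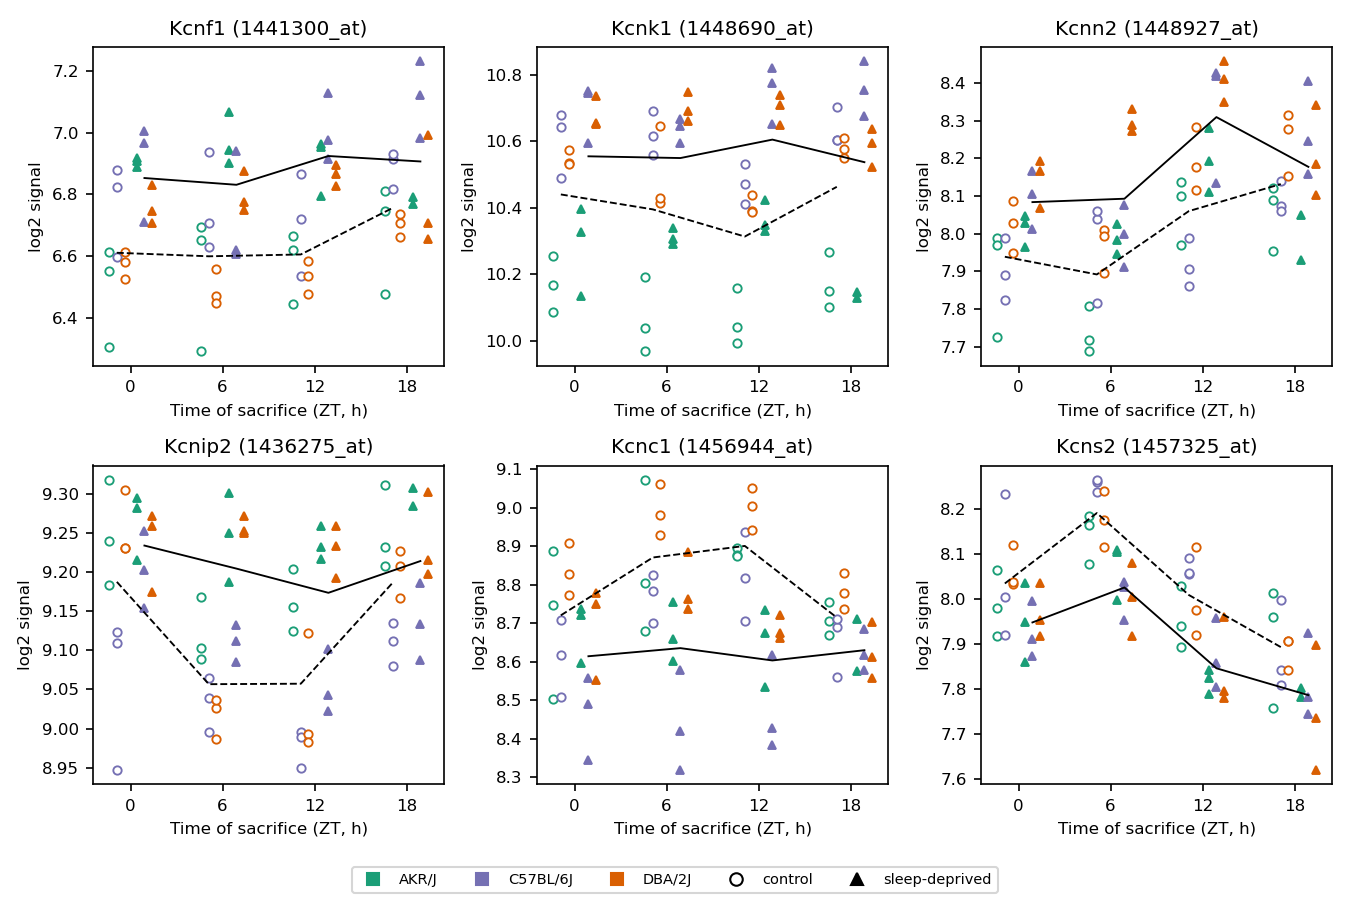
Log2 value of each of the 71 arrays by time of sacrifice for 6 Kcn probe sets, open circles for control and filled triangles for sleep-deprived arrays, colours for strains, and dashed and solid lines for the mean of the control and sleep-deprived arrays at each time. The lines of Kcnf1, Kcnk1 and Kcnn2 lie apart at ZT12 with sleep-deprived arrays higher (0.32, 0.29 and 0.25), and that of Kcnc1 lies lower (-0.30).

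The counts differed by the time of the 6 h awake: 2 Kcn probe sets were called at ZT0 (against 1.71% of all probe sets), 18 at ZT6 (10.4%), 21 at ZT12 (9.75%) and 0 at ZT18 (0.0777%). At ZT0 the 2 were Kcnk1 1455896_a_at (0.22 ± 0.04) and Kcnf1 1441300_at (0.24 ± 0.06). That count was 1 without C57BL/6J control replicate 3 of ZT0, 7 without C57BL/6J sleep-deprived replicate 3, 4 without AKR/J control replicate 2 or without C57BL/6J control replicate 1, and 0 with a fit to the ZT0 arrays alone. At ZT18 limma called none, 8 had an unadjusted p under 0.05, and none of the other processing choices called any.

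At ZT6, after the early part of the light period spent awake, 10 probe sets rose (5.13% of all did) and 8 fell (5.29%). Kcnf1 (0.28 and 0.23), Kcnn2 (0.20), Kcnma1 (0.18, not called without the 6 arrays with low spike-in controls), Kcnv1 (0.17 and 0.12), Kcnk1 (0.15), Kcnip2 (0.15) and Kcnq1ot1 (0.12) rose. Kcnc1 (-0.24), the 3 Kcnip4 probe sets (-0.21, -0.20 and -0.16), Kcnmb4os2 (-0.19), Kcns2 (-0.16), Kcnq5 (-0.15) and Kcnj3 (-0.12) fell. For Kcnip4 1437631_at the conditions overlapped in no strain at ZT6: 9.70, 9.73 and 9.76 against 9.50, 9.52 and 9.55 in AKR/J, 9.75, 9.75 and 9.81 against 9.57, 9.66 and 9.69 in C57BL/6J, and 9.64, 9.65 and 9.69 against 9.47, 9.54 and 9.56 in DBA/2J. The dim Kcng1 had the largest change at ZT6, 0.41 ± 0.07: AKR/J controls read 5.31, 5.36 and 5.57 against 5.80, 5.85 and 5.85 after sleep deprivation, and DBA/2J controls 5.44, 5.52 and 5.58 against 5.93, 5.95 and 6.02. In those strains the groups did not overlap, and in C57BL/6J they did (5.68, 5.69 and 5.90 against 5.83, 6.17 and 6.32). At ZT6 the 6 arrays with low spike-in controls include sleep-deprived C57BL/6J replicates 1 and 3 and AKR/J control replicate 3.

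At ZT12, after the later part of the light period spent awake, 12 rose (4.71% of all) and 9 fell (5.04%). Kcnf1 (0.32 and 0.28), Kcnk1 (0.29 and 0.20), Kcnn2 (0.25), Kcnj12 (0.24), Kcnd3 (0.21), Kcnj13 (0.18), Kcnv1 (0.14 and 0.13) and Kcnip2 (0.12) rose, as did 1421468_at of Kcnj3 (0.14), whose other probe set 1455374_at carried the overall fall. Kcnc1 (-0.30), Kcnt1 (-0.18), Kcnq5 (-0.17), Kcns2 (-0.16), Kcnh1 (-0.16) and Kcnmb4os2 (-0.15) fell, with Kcnip4. The Kcnk1 groups at ZT12 were apart in every strain: 9.99, 10.04 and 10.16 against 10.33, 10.35 and 10.42 in AKR/J, 10.41, 10.47 and 10.53 against 10.65, 10.77 and 10.82 in C57BL/6J, and 10.39, 10.39 and 10.44 against 10.65, 10.71 and 10.74 in DBA/2J.

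Over the 30 probe sets called over all groups, the median effect in the direction of the overall change was 0.09 at ZT0, 0.15 at ZT6, 0.16 at ZT12 and 0.04 at ZT18. The ZT18 effect was smaller than that at ZT0 in 23, at ZT6 in 27 and at ZT12 in 28 of the 30. These are descriptions, since the same arrays chose the 30. The test of whether the effect differed between times called 1 Kcn probe set, against 1.4% of all, with 18 at an unadjusted p under 0.05. It was Kcnk1 1448690_at (adjusted p = 0.0167), with effects of 0.11 at ZT0, 0.15 at ZT6, 0.29 at ZT12 and 0.03 at ZT18. The count was 11 with array weights (against 4.07% of all), 3 without sleep-deprived C57BL/6J replicate 2 of ZT6 and 2 without sleep-deprived DBA/2J replicate 1 of ZT18. For the other Kcn genes a difference between times was not shown.

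**Figure D3:**
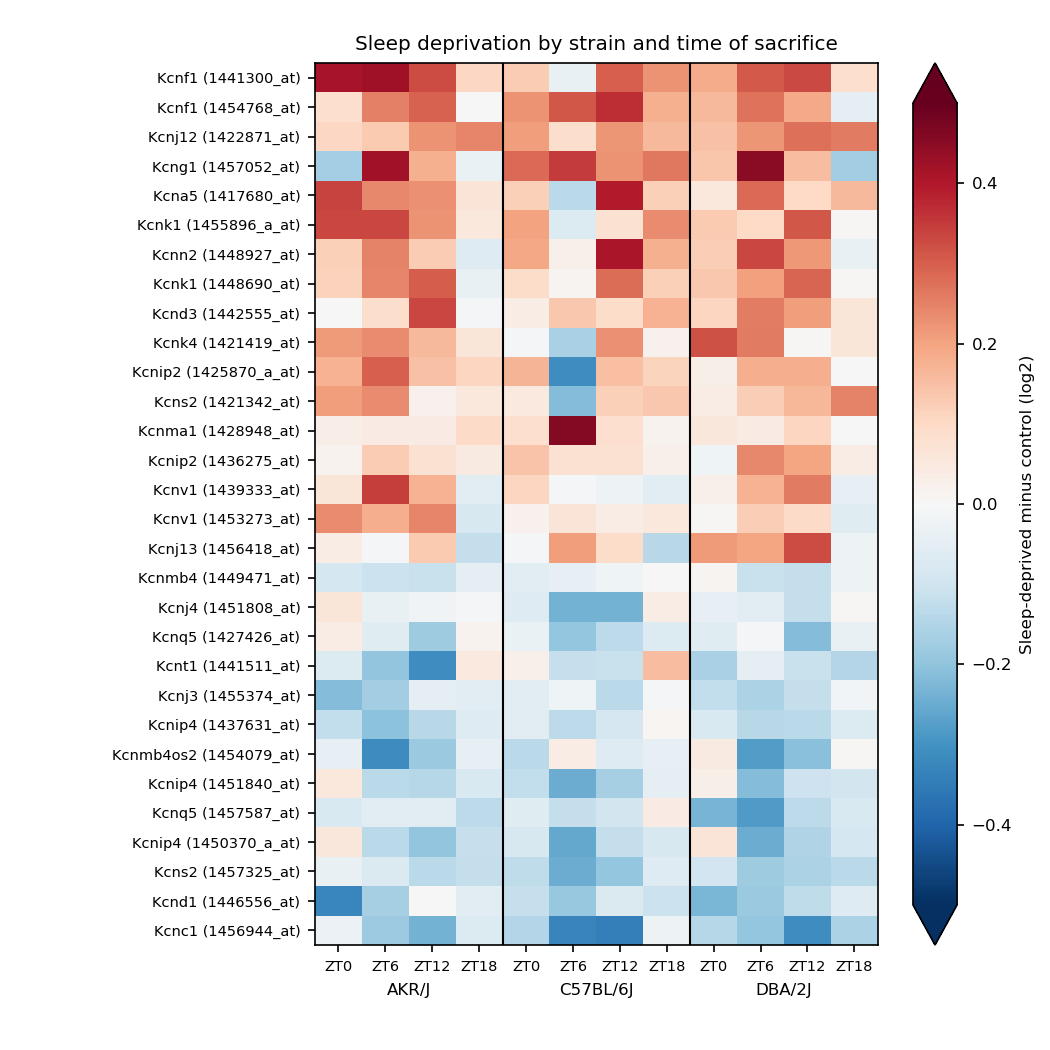
Sleep-deprived minus control mean (log2) for the 30 called Kcn probe sets in each of the 12 strain-time pairs, with red for higher and blue for lower on a scale of ±0.5. The columns of ZT6 and ZT12 carry the deeper colours (median signed effects 0.15 and 0.16) and those of ZT18 the palest (0.04).

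Time of day itself was read from the 36 control arrays. It changed 16 of 167 Kcn probe sets (9.58%, of 13 genes), against 11.7% of all probe sets, and 15 of the 90 brighter ones (16.7%, against 20.5%). Kcns2 1457325_at moved most clearly: controls read 7.92 to 8.23 at ZT0 (median 8.03), 8.08 to 8.26 at ZT6 (8.18), 7.89 to 8.11 at ZT12 (8.03) and 7.76 to 8.01 at ZT18 (7.91). Its highest values lay in the middle of the light period and its lowest in the middle of the dark, without overlap between those 2 times, and its means differed by 0.30 (limma adjusted p = 2.25e-06). Kcnv1 had the opposite course, with means of 7.76, 7.69, 7.73 and 7.93 from ZT0 to ZT18 on 1453273_at, a range of 0.25 (2.16e-05), and all 3 of its probe sets were highest at ZT18. Its arrays overlapped between times, 7.42 to 7.83 at ZT6 and 7.72 to 8.21 at ZT18.

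Kcnn2 rose from a mean of 7.89 at ZT6 to 8.13 at ZT18 (range 0.24, 8.31e-05), and Kcna5 from 5.87 at ZT0 to 6.22 at ZT12 (range 0.36, 0.00686). Kcnip2 1436275_at was 9.19 at both ZT0 and ZT18 and 9.06 at both ZT6 and ZT12 (range 0.13, 2.61e-05). Kcnc1 went the other way on 1456944_at, with 8.87 and 8.90 at ZT6 and ZT12 against 8.72 and 8.71 at ZT0 and ZT18 (range 0.19, 0.0021). Kcnj4 had the same shape (7.63, 7.75, 7.76 and 7.59, range 0.17, 0.00335), as did Kcnmb4 (9.50, 9.60, 9.56 and 9.49, range 0.11, 0.0355). Kcnmb4os2 peaked at ZT6 (6.65) and was lowest at ZT18 (6.39, range 0.26, 6.85e-05). Kcnip4 was lowest at ZT0 on 1451840_at (9.05) and highest at ZT12 (9.20, range 0.15, 0.0239), and Kcnk1 1448690_at was lowest at ZT12 (10.31) and highest at ZT18 (10.46, range 0.15, 0.0144). Kcnh1 1435994_at ranged by 0.18 (0.044), a call lost with 21 of the arrays left out singly. The other probe sets of Kcnc1, Kcnk1 and Kcnh1 were not called for time of day in controls.

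Among dimmer genes 1 was called: Kcne2 (MiRP1), an accessory subunit abundant in choroid plexus, had means of 5.60, 5.42, 5.24 and 5.59 (range 0.36, 0.00244). None of the 7 choroid plexus markers was called for time of day. This comparison and that of sleep deprivation share the control arrays.

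**Figure D4:**
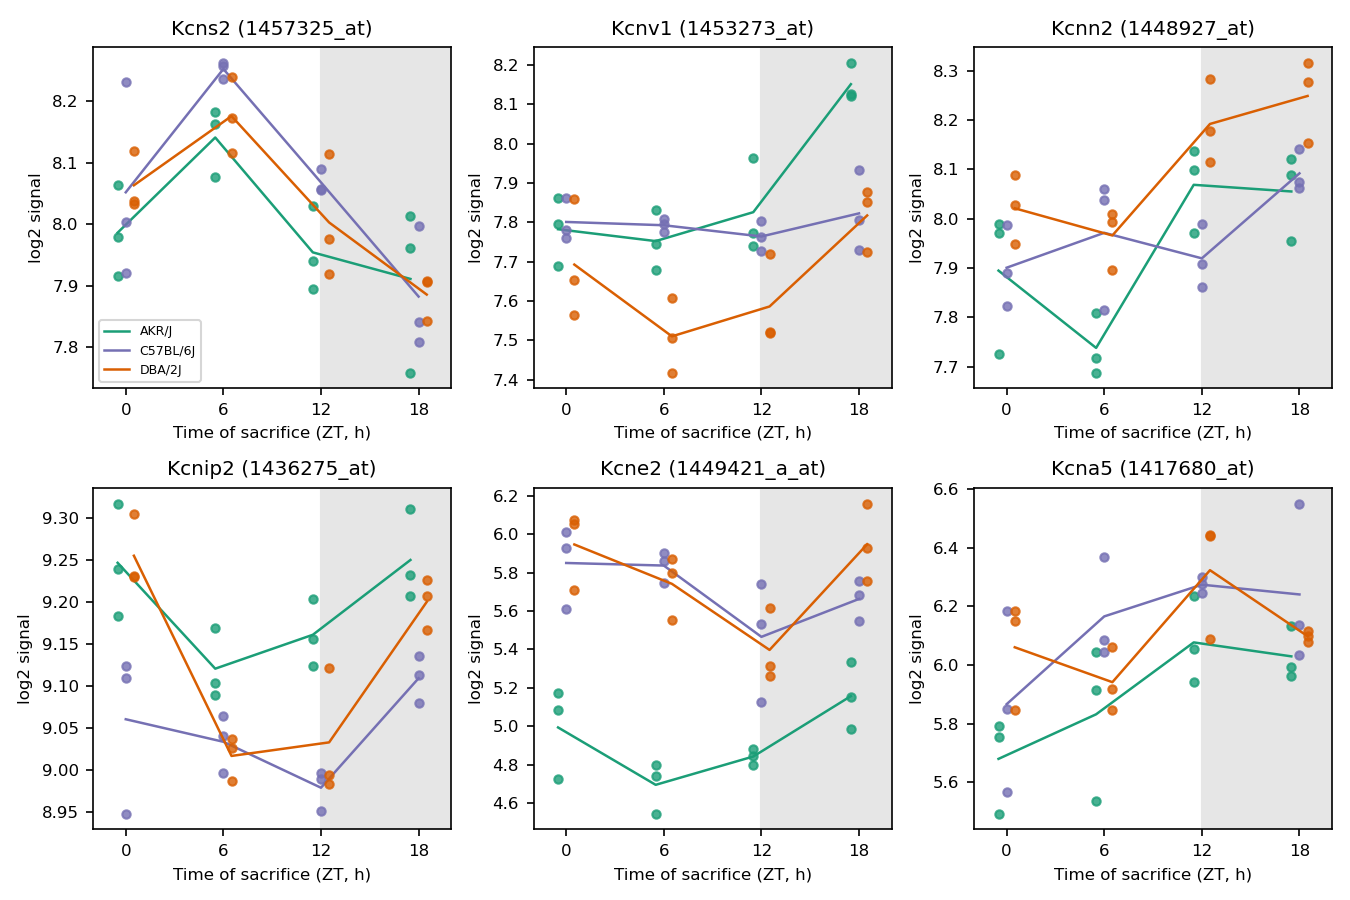
Log2 values of the 36 control arrays by time of sacrifice for 6 Kcn probe sets, with a line through the 3-array mean of each strain and grey marking darkness. Kcns2 is highest at ZT6 (mean 8.19) and lowest at ZT18 (7.89), and Kcnv1 is highest at ZT18 (7.93).

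In the 35 sleep-deprived arrays time of day changed 5 Kcn probe sets (2.99%, against 1.42% of all), with 26 at an unadjusted p under 0.05. Kcns2 1457325_at kept the same order of times, 7.95, 8.03, 7.85 and 7.79 (range 0.24, adjusted p = 0.000487). Kcnn2 and Kcna5 had their highest means at ZT12, 8.31 (range 0.23, 0.00127) and 6.47 (range 0.43, 0.00346). Kcnip3 1418544_at, a calcium-binding A-type channel partner that also binds DNA, was highest at ZT6 (9.07, range 0.19, 0.011), and so was Kcnh1 1418414_at (7.65, range 0.23, 0.0119). The count was 8 without sleep-deprived C57BL/6J replicate 2 of ZT6 and 3 without sleep-deprived DBA/2J replicate 2 of ZT6. A strain difference in the time course of controls was called for 0 Kcn probe sets by limma (against 0.0222%), with 17 at an unadjusted p under 0.05, 1 with array weights and 1 without DBA/2J control replicate 3 of ZT0.

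Strain gave the largest differences. In the control arrays 64 of 167 Kcn probe sets (38.3%, of 41 genes) differed between strains, against 32.8% of all probe sets, 49 of the 90 brighter ones (54.4%, against 47.3%) and 15 of the 77 dimmer ones (19.5%, against 20.6%). By pair, C57BL/6J differed from AKR/J on 43 (against 22.9% of all), 25 higher (9.74%) and 18 lower (13.1%), DBA/2J from AKR/J on 43 (against 17.3%), 28 higher (9.01%) and 15 lower (8.3%), and DBA/2J from C57BL/6J on 44 (against 23.2%), 22 higher (13.6%) and 22 lower (9.55%). By family, beside 32.8% of all probe sets, the calls were 18 of 50 voltage-gated, 6 of 15 silent, 11 of 24 accessory, 6 of 16 calcium- or sodium-activated, 2 of 5 BK accessory, 15 of 31 inward rectifier, 5 of 18 two-pore-domain and 1 of 8 other probe sets. Each value below is a mean over the 12 control arrays of a strain.

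The largest difference was on 1 probe set of Kcnq5. On 1441071_at the C57BL/6J arrays read 7.33 to 7.84 (mean 7.55 ± 0.15 SD), against 3.76 to 4.54 in AKR/J (3.96 ± 0.20) and 3.75 to 4.19 in DBA/2J (3.96 ± 0.13). No C57BL/6J array overlapped the others, and the difference from AKR/J was 3.60 ± 0.07 (SE, limma adjusted p = 2.05e-45). Since 3.96 is at the level of the liver transcript Alb (3.97), the fold is given as a lower bound, at least 12.1-fold higher. The other Kcnq5 probe sets were called too, but with ranges of at most 0.13 and C57BL/6J lowest on the first, with 8.44, 8.33 and 8.42 on 1457587_at and 6.86, 6.92 and 6.79 on 1427426_at for AKR/J, C57BL/6J and DBA/2J. The mean of 1441071_at over all arrays was under 6 because of the low strains. Whether the strains differ in sequence under these probes was not analysed here.

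Kcnj9 and its neighbour Kcnj10 were both low in C57BL/6J on their brightest probe sets. Kcnj9 encodes GIRK3, a subunit of G protein-gated inward rectifiers. Its brightest probe set, 1450712_at, read 7.38 to 8.01 in C57BL/6J (mean 7.80), against 9.51 to 9.88 in AKR/J (9.74) and 9.73 to 10.01 in DBA/2J (9.87). C57BL/6J minus AKR/J was -1.94 ± 0.05 (3.84-fold, 1.12e-37), without overlap. On 1426115_a_at it was lower too (6.72 against 7.68 and 7.85), and 1428602_at ran the other way, with 7.82 against 7.09 and 7.11 and no overlap (7.64 to 7.94 against 6.85 to 7.33 and 6.96 to 7.21). The direction for Kcnj9 as a gene therefore depends on the probe set. Kcnj10 (Kir4.1), through which astrocytes take up the potassium that neurons release, read 9.13 to 9.50 in C57BL/6J (mean 9.32), 9.75 to 10.16 in AKR/J (9.98) and 9.75 to 10.15 in DBA/2J (9.94). C57BL/6J was the low strain again and overlapped neither of the others: it differed from AKR/J by -0.66 ± 0.04 (3.21e-19), and DBA/2J was above it by 0.62 ± 0.04 (4.55e-18). Astrocyte markers differed between strains on 7 of 9 genes, against 35.9% of all genes. The mean of that list had medians of 10.49 in AKR/J, 10.59 in C57BL/6J and 10.53 in DBA/2J. The part of astrocytes in the Kcnj10 difference was not tested.

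Kcnj16 (Kir5.1), which joins Kcnj10 in a pH-sensitive channel, had another order. On 1436163_at AKR/J read 5.72 to 6.03 (mean 5.86), C57BL/6J 6.51 to 6.96 (6.75) and DBA/2J 6.99 to 7.32 (7.15). The 3 strains did not overlap, and DBA/2J was above AKR/J by 1.29 ± 0.06 (adjusted p = 1.02e-26). Its other probe set, 1435094_at, had the same order (5.18, 5.75 and 6.01). Kcnj3 1455374_at was highest in C57BL/6J (8.54, against 8.24 and 8.14), and Kcnj13 was too (7.75, against 7.41 and 7.50). A Kcnj6 (GIRK2) probe set with a mean under 6 was lowest in AKR/J (5.30, against 5.84 and 5.92), as was Kcne2 (4.92, against 5.70 and 5.76). For C57BL/6J minus AKR/J, Kcnj3 and Kcnj6 each had 1 probe set called higher and 1 called lower, so the direction depends on the probe set. Beside Kcnj13 and Kcne2, the choroid plexus list differed on 5 of 7 genes (35.9% of all genes did), with median levels of 6.94 in AKR/J, 7.09 in C57BL/6J and 7.04 in DBA/2J, and its part in these results was not tested.

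**Figure D5:**
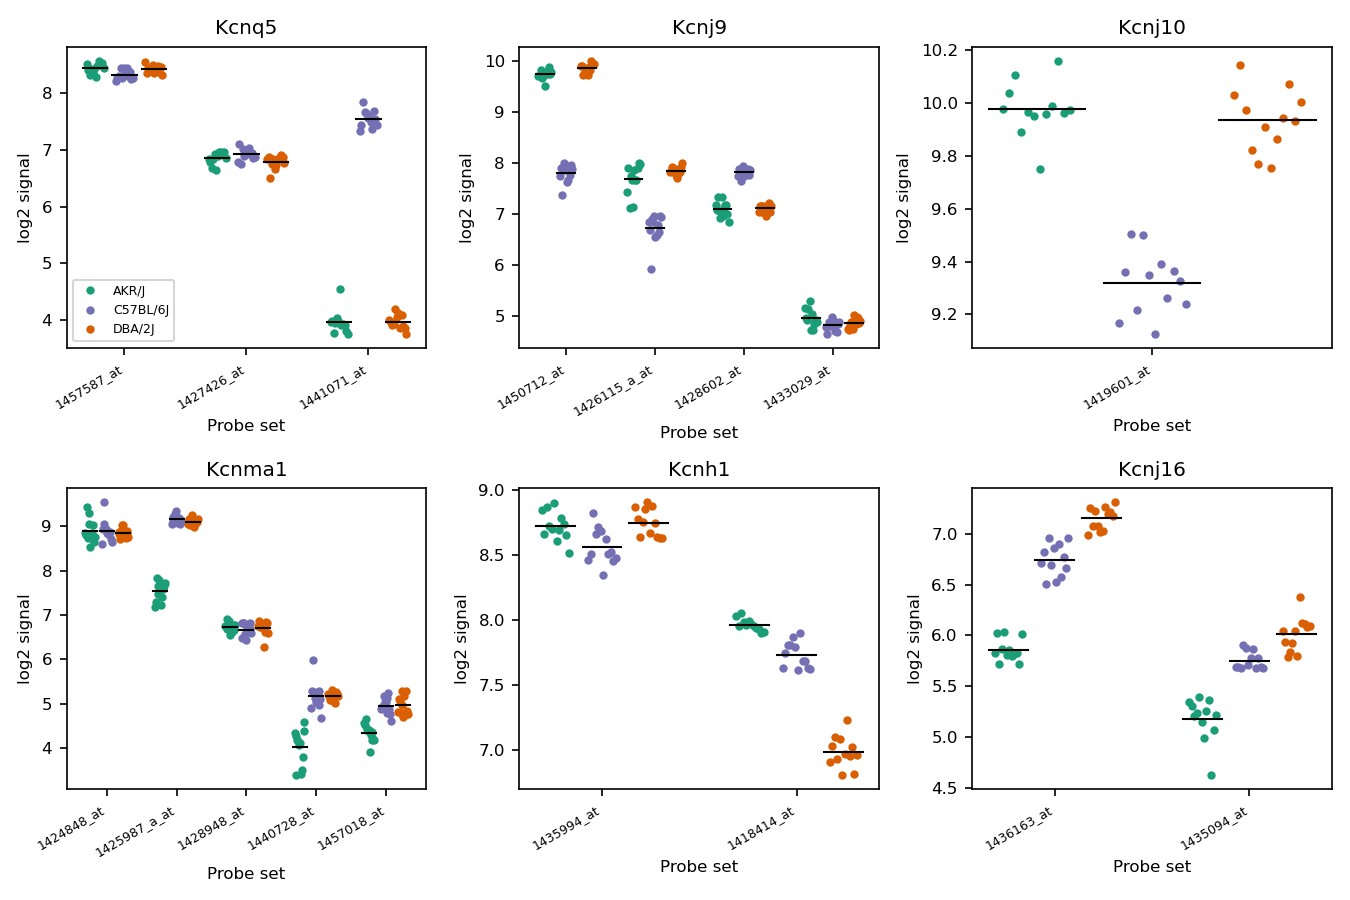
Log2 values of the 36 control arrays by strain for every probe set of Kcnq5, Kcnj9, Kcnj10, Kcnma1, Kcnh1 and Kcnj16, with black bars at the strain means. Kcnq5 1441071_at is high in C57BL/6J alone (7.55, against 3.96 and 3.96), and the Kcnj9 probe sets differ in direction.

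Kcnma1, the BK pore, was low in AKR/J on 1425987_a_at. AKR/J read 7.18 to 7.84 (mean 7.54), C57BL/6J 9.05 to 9.34 (9.16) and DBA/2J 8.98 to 9.26 (9.10), so that AKR/J lay apart from both, by 1.62 ± 0.05 from C57BL/6J (3.08-fold, adjusted p = 1.21e-35). Its dim probe sets 1440728_at and 1457018_at were lowest in AKR/J too (4.02, 5.17 and 5.19, and 4.35, 4.96 and 4.97). The other 2, 1424848_at (8.90, 8.89 and 8.85) and 1428948_at (6.74, 6.67 and 6.71), were not called. Kcnh1 was low in DBA/2J on 1418414_at, at 6.81 to 7.23 (mean 6.99) against 7.90 to 8.06 in AKR/J (7.97) and 7.61 to 7.90 in C57BL/6J (7.73). DBA/2J minus AKR/J was -0.98 ± 0.04 (5.23e-28), and the other Kcnh1 probe set had its lowest mean in C57BL/6J (8.73, 8.56 and 8.75).

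Kcnk1 was lowest in AKR/J on both probe sets, with 10.12, 10.58 and 10.51 on 1448690_at and 8.26, 8.57 and 8.51 on the other. The AKR/J control arrays (9.97 to 10.27) did not overlap those of C57BL/6J (10.41 to 10.70) or DBA/2J (10.39 to 10.65), and C57BL/6J was higher by 0.46 ± 0.03 (3.05e-18). Kcnv1 1439333_at was lowest in AKR/J (7.38, against 8.0 and 8.09), while 1453273_at was highest there (7.88, against 7.80 and 7.65). Kcnip3 was highest in DBA/2J on both of its probe sets (7.49, 7.52 and 8.20, and 8.83, 8.84 and 9.10). Kcnf1 1454768_at was highest in C57BL/6J (7.90, against 7.60 and 7.59), and the accessory subunit Kcnab3 was lowest there (7.64, against 7.90 and 7.94). Over the 3 pairs of strains and the overall sleep deprivation effect, 13 cases of a gene with called probe sets of opposite sign were found, in Kcnc1, Kcnh1, Kcnip1, Kcnj3, Kcnj6, Kcnj9, Kcnq5 and Kcnv1 between strains and in Kcns2 for sleep deprivation.

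Set side by side, strain had the largest median share of the 3 main effects on these channels, close to its share over all probe sets. The interactions had a larger share, but replicate noise was not removed and falls largely there, since they take up most of the contrasts among 24 means. By limma's tests strain by sleep deprivation was called for 0 Kcn probe sets, time by sleep deprivation for 1 and strain by time in controls for 0. For the 90 brighter Kcn probe sets the median share of the variance between group means was 30.9% for strain, 12.1% for time of day, 4.20% for sleep deprivation and 33.8% for their interactions, against 29.0%, 11.3%, 4.59% and 37.2% for all probe sets at that level. Strain was the largest of the 3 main effects for 60 of the 90, time for 21 and sleep deprivation for 9. Because noise adds more to the share of time, these shares do not rank time of day against sleep deprivation. Sleep deprivation had its largest shares for Kcnf1 1441300_at (50.4%) and the dim Kcnj12 (52.0%), then Kcnip4 1437631_at (41.0%) and Kcnc1 1456944_at (40.6%). Time of day had its largest for Kcns2 1457325_at (63.2%).

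Genes that work with potassium channels, other than the Kcn genes themselves, were listed too, and 26 of 36 were measured. Sleep deprivation changed 6 of them, against 22.1% of all genes. Lgi1, which slows inactivation of Shaker-type channels, rose by 0.05 (adjusted p = 0.0309). Abcc8, the regulatory subunit of ATP-sensitive channels, fell by 0.08 (0.0137), and the A-type channel partners Dpp6 and Dpp10 each fell by 0.05 (0.0386 and 0.0134). The chloride and potassium cotransporter Slc12a2 fell by 0.06 (0.0293) and the G protein subunit Gng2 by 0.06 (0.009). Time of day changed 1 of the 26, Pex5l, which traffics the related HCN channels (range 0.16, 0.0041, against 14.8% of genes). Strain changed 9 (against 35.9%), led by Gnb1, a G protein subunit that opens GIRK channels, with a range of 3.09. That range stands on the brightest Gnb1 probe set alone, so it is not shown for the gene as a whole. Whether the strains differ in sequence under its probes was not analysed here.

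Cell type markers were read on the same arrays. For sleep deprivation 22.1% of all genes were called. Of 10 neuron markers 2 were (1 higher, 1 lower), and the list's mean level was 11.27 to 11.47 in controls (median 11.39) and 11.30 to 11.47 after sleep deprivation (median 11.38). Of 9 astrocyte markers 1 was called. Of 7 oligodendrocyte markers 4 were, all lower (Opalin by 0.59), with list levels of 10.42 to 10.97 in controls (median 10.66) and 10.35 to 10.76 (median 10.51). Of 7 endothelial markers 5 were called (1 higher, 4 lower) and of 7 microglial markers 3. Lists also moved with strain, where 35.9% of all genes were called. The 7 cerebellum markers all differed, and their mean level was 11.09 to 11.24 in AKR/J controls (median 11.16), above 10.92 to 11.04 in C57BL/6J (11.02) and 10.85 to 11.03 in DBA/2J (10.96), without overlap. Oligodendrocyte markers differed on 6 of 7, with medians of 10.60, 10.82 and 10.62, and microglial markers on 7 of 7, with medians of 8.23, 8.20 and 8.02. The part of these cell types and brain regions in the potassium channel results was not tested.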

How the data were processed

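RNA from 71 pools of 3 whole mouse brains was hybridised to one-colour Affymetrix arrays. The deposited values are log2 signals made by the authors with RMA, per the submitters' processing notes, with no version or settings stated. They were used as deposited. The 64 control probe sets were left out of the tests. Of 45037 probe sets, 34945 had 1 gene symbol in the platform annotation, 932 several and 9160 none here, and symbols can be old.

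A mean for each of the 24 groups was fitted with limma 3.58.1 in R 4.3.3 (47 residual degrees of freedom), with two-sided moderated tests and Benjamini-Hochberg adjustment over all 45037 probe sets at 0.05. The fit was tested on simulated data. The number of arrays limits the precision. No 2 arrays of a group held the same values.

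The genes and lists were chosen with earlier results of these data known. Genes named were, for each comparison, the called genes with the smallest p (up to 12 a direction at a mean of 6 or more and up to 3 below it), all where a direction had 5 or fewer, and a fixed list of channels known from sleep or excitability. The genes that work with potassium channels and the marker genes stand on their brightest probe set.

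The labels number the arrays of a group 1 to 3. Same-numbered arrays of different groups did not deviate together (median residual correlation 0.0055, against -0.0020 for other pairs), so no pairing was used. Alternatives were quantile normalization, median centring, the 6-or-more filter, other eBayes settings, array weights, blocks for replicate number and spike-in arrays, leaving the latter out, fits to the compared groups, 1 probe set per gene, and leaving out each array.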

Additional observations from a re-analysis of the deposited data

Results flagged for a closer look

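The effect of sleep deprivation on Kcnk1 1448690_at differed between the times of sacrifice by a test of the difference itself (limma adjusted p = 0.0167). Its effects, 0.11 at ZT0, 0.15 at ZT6, 0.29 at ZT12 and 0.03 at ZT18, spanned 0.26. In every strain at ZT12 the 3 sleep-deprived arrays lay above the 3 controls. The control mean of 1448690_at was itself lowest at ZT12 (10.31) and highest at ZT18 (10.46), and the same controls enter both comparisons.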

How the results depend on the processing

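Of 213 called results for named genes, 166 kept their call under every alternative that tested them and with every array left out. In 42 the call was lost under some alternative and in 41 with some array left out. Alternatives that dropped a probe set or did not refit a comparison were skipped for it. No difference between 2 conditions or strains changed direction under an alternative. Direction was not counted with arrays left out, and tests over several groups have none. Counts of called Kcn probe sets that moved by more than 1.5 times are these, and the cause was not tested unless fewer probe sets or arrays entered. The share of all tested probe sets called under the same alternative stands in brackets. With 1 probe set for each of the 84 genes there were 18 called for sleep deprivation (23.9%) and 41 for strain (37.1%). By pair there were 25 for C57BL/6J minus AKR/J (26.1%), 27 for DBA/2J minus AKR/J (19%) and 25 for DBA/2J minus C57BL/6J (26.6%). Array weights gave 17 in AKR/J (7.88%), 22 in C57BL/6J (11.1%), 4 at ZT0 (3.11%), 28 at ZT6 (16.8%) and 11 for time by sleep deprivation (4.07%). They gave 25 and 20 for time of day in control and sleep-deprived arrays (14.4% and 5.62%), and 1 for strain by time (0.473%). Without the 6 arrays with low spike-in controls C57BL/6J had 8 (4.19%). With them as a block, time of day in sleep-deprived arrays had 8 (1.6%). A fit to the compared groups alone gave 7 in AKR/J (4.25%), 0 at ZT0 (0.411%) and 3 for time of day in sleep-deprived arrays (0.997%). Quantile normalization gave 5 at ZT0 (1.65%). Testing only probe sets of 6 or more gave 6 at ZT0 (5.94%) and 1 for strain by time (0.257%).

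With each array left out in turn, the count was 28 to 32 over all groups, 9 to 14 in AKR/J, 9 to 16 in C57BL/6J, 11 to 14 in DBA/2J, 1 to 7 at ZT0, 16 to 20 at ZT6, 15 to 24 at ZT12, 0 at ZT18, 1 to 3 for time by sleep deprivation, 13 to 21 and 3 to 8 for time of day in control and sleep-deprived arrays, 0 to 1 for strain by time, and 60 to 67 for strain. By pair of strains it was 38 to 44, 36 to 44 and 38 to 45. Without the 6 arrays with low spike-in controls the count was 3 at ZT0 (against 1.42% of all probe sets), 16 at ZT6 (7.73%) and 25 at ZT12 (11.9%). It was 18 in DBA/2J (8.63%) and 20 for time of day in controls (11.3%). The replicate block gave 30 over all groups, 2 at ZT0, 18 at ZT6 and 23 at ZT12, 17 for time of day in controls and 64 for strain, and moved no count by 1.5 times. Of the channels called over all groups, Kcnj13 lost its call with quantile normalization and without the low spike-in arrays (adjusted p up to 0.202), and Kcnj4 with median centring (0.074). Where a probe set is dim, its low signal over background limits what can be seen.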
